A study of Rattus norvegicus with 11 samples.

Results

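The splicing and hnRNP genes described here encode proteins of the spliceosome and of the particles that coat nuclear pre-mRNA. They were taken by gene symbol: every gene with a probe set whose only symbol in the platform annotation starts with Hnrnp, Srsf, Snrp, Sf3a, Sf3b or Prpf, or with Lsm and a digit. The rule found 59 genes on 80 probe sets, among 10411 genes named on the array. Where a gene had several probe sets, as 15 did, the brightest on average over the arrays stands for it, and no member was lost to a filter on low values. They comprise 16 Hnrnp, 7 Srsf, 8 Snrp, 8 Sf3a or Sf3b, 10 Prpf and 10 Lsm genes.

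RNA of REF52, an established line of fibroblasts from rat embryos, was hybridised to 11 Affymetrix rat arrays. The cells were grown in 10% fetal bovine serum, kept in 0.25% serum for 48 hours, and infected with a control adenovirus (labelled CMV) or an adenovirus that carries E2F1, which encodes an activator of genes for DNA replication. Infected cells then stayed in deprivation medium, received serum, or received serum plus LY294002, which inhibits phosphoinositide 3-kinase. Each of the 6 groups has 2 arrays, except control virus in deprivation medium, which has 1; all groups share the line, the 48 hours of deprivation and an adenovirus. E2F1 was delivered by virus into a single line, the labels give neither its dose nor the time of harvest, and separate cultures within a group are not stated, so the replicate spread behind the p-values may be technical. Precision is limited by the small number of arrays.

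Before its introns are removed, a pre-mRNA is bound by hnRNP proteins and by SR proteins, which steer the choice of splice sites. The spliceosome then assembles from small nuclear RNPs: U1 and U2 carry a ring of Sm proteins, U2 is held at the branch point by the SF3a and SF3b complexes, and the tri-snRNP brings U4, U5 and U6, the last of which carries a ring of Lsm proteins. Prpf genes encode factors named from yeast precursor RNA processing mutants, many of them parts of the tri-snRNP or of complexes that act on it.

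The promoters of Srsf2, Hnrnpab and Lsm2 are shown because these had the largest change with E2F1 of the SR, hnRNP and Lsm genes and were called in at least 1 single medium besides the average over media. Each window runs from 250 bases before to 50 after an annotated gene start (RefSeq, GRCr8), 5′ to 3′ on the gene's strand. Capitals mark matches to short words searched on both strands. A CCAAT box is the usual site of the factor NF-Y. The E2F-type words were TTCCCGC as the first form. A second form with a central CpG was TTCGCGC and was counted alike. The last of the forms searched was TTGGCGC, and any of them counted as a match. No matches overlapped in the windows shown. The windows are chr10:102554092-102554391 (minus strand) for Srsf2, chr10:36363849-36364148 (minus strand) for Hnrnpab, and chr20:3851444-3851743 and chr20:3851821-3852120 (minus strand) for 2 annotated starts of Lsm2.
Srsf2: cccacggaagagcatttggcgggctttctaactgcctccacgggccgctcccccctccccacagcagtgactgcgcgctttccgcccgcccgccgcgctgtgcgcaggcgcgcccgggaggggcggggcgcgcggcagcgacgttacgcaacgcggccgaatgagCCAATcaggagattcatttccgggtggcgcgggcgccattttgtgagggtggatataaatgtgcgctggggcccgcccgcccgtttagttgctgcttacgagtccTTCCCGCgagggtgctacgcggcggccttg
Hnrnpab: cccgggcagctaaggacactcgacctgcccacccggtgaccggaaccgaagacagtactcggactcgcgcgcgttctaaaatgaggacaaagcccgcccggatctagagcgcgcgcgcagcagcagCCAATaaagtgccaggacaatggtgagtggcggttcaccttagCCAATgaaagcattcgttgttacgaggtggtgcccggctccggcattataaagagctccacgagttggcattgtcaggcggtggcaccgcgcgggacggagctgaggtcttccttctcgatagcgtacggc
Lsm2, start A: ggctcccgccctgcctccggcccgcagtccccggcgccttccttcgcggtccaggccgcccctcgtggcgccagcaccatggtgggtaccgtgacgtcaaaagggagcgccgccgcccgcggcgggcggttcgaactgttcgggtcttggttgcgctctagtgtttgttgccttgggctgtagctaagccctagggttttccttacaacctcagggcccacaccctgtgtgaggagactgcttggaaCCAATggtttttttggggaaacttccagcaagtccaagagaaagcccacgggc
Lsm2, start B: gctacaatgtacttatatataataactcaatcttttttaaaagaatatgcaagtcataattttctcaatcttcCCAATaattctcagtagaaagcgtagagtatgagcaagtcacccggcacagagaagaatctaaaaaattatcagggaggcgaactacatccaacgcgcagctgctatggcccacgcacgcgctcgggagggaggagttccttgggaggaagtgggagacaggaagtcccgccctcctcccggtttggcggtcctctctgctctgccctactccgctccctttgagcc
In these windows the E2F-type words occurred once, in Srsf2, beginning at base 21 after the start, while each window held a CCAAT box: 85 bases before the start in Srsf2, 124 and 81 before in Hnrnpab, and 3 and 177 before starts A and B of Lsm2. Promoter windows were found for 57 members, and 18 of these genes (31.6%) held an E2F-type word in at least 1 window, against 10.4% of 19005 protein-coding genes. The share was 7 of 20 among members that rose with E2F1 in the average over media and 11 of 37 among the others. Besides Srsf2, the 7 are Hnrnpa2b1, Hnrnpa3, Hnrnpu, Lsm3, Snrpa and Srsf9. A CCAAT box was present in 50.9% of members and 39.8% of all these genes. A word match describes the letters of the window and is not a binding site, and a window without one says only that these letters are not in it.

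On the 11 arrays the members' signals (linear array units, with a trimmed mean of 500 on every array) lay mostly well above the array medians of 173 to 208. Because of this scaling, a lower signal cannot tell less of a transcript in each cell from a larger share of other RNA. The defining fibroblast markers were present: 11 of 12 had a median signal above the series median of 192, with Thy1 the exception. Of 22 measured markers of epithelial, blood, endothelial, striated muscle, liver and neural cells 3 did so (Krt8, Des and Syp). No probe set has E2f1 as its only symbol, so its own level is not analysed here; its targets Mcm6 (1120 to 1466 with E2F1, 125 to 554 with control virus) and Pola2 (240 to 408 and 13.1 to 92.4) separated all E2F1 arrays from all control arrays. RNA quality was read from control transcripts probed at both ends: the 3′ signal exceeded the 5′ signal by a log2 of 0.51 to 0.76 on the 3 deprived arrays, 0.90 on the second E2F1 array with LY294002 and 0.12 to 0.33 on the other 7.

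Averaged over the 3 media, 20 of the 59 members rose with E2F1 and 0 fell (limma, Benjamini-Hochberg adjusted p under 0.05 over all 15866 probe sets tested). Beside this 33.9%, limma called 16.5% of all probe sets, 9.23% higher and 7.25% lower. Taking the brightest probe set of each of the 10411 named genes, 10.9% were called higher and 7.82% lower. Most members are bright. With the dimmest 30% of probe sets left out, limma called 27.3% of the remaining 11106 in this average, in either direction. The members' 33.9% is from the full fit, so these shares come from unlike fits. On 9 members every E2F1 array lay above every control array, and on 0 below, against 6.05% and 3.59% of all probe sets. The members' median log2 change was 0.29 (log2 of signal plus 16, the scale of all log2 changes here), against -0.04 for all probe sets. Of the members 50 of 59 lay above 0, against 44.3% of all probe sets. The rises were small: Lsm2 and Hnrnpab exceeded 2-fold, and the other 18 ranged from 1.30-fold to 1.92-fold. The families differed in their counts: 8 of 16 Hnrnp, 4 of 7 Srsf and 5 of 10 Lsm genes rose, against 1 of 8 Snrp, 1 of 8 Sf3 and 1 of 10 Prpf genes; the difference between families was not tested. Leaving out an array lowered the count to 12 (the first deprived E2F1 array, or the first control virus array in serum) or 13 (the second deprived E2F1 array, or the first with E2F1 in serum), while the share called of all probe sets was then 9.71% to 11.2%. Averaged over serum and serum with LY294002 alone, an alternative chosen after seeing the data, 11 members (18.6%) rose, against 10.2% of all probe sets. Values given below as without the deprived arrays are from this average. The deprived arrays were left out of the average only and still entered the fit and its estimate of the spread. With the 3′ excess fitted as a covariate 24 rose, all 20 among them, against 19.7% of all probe sets called.

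**Figure D1:**
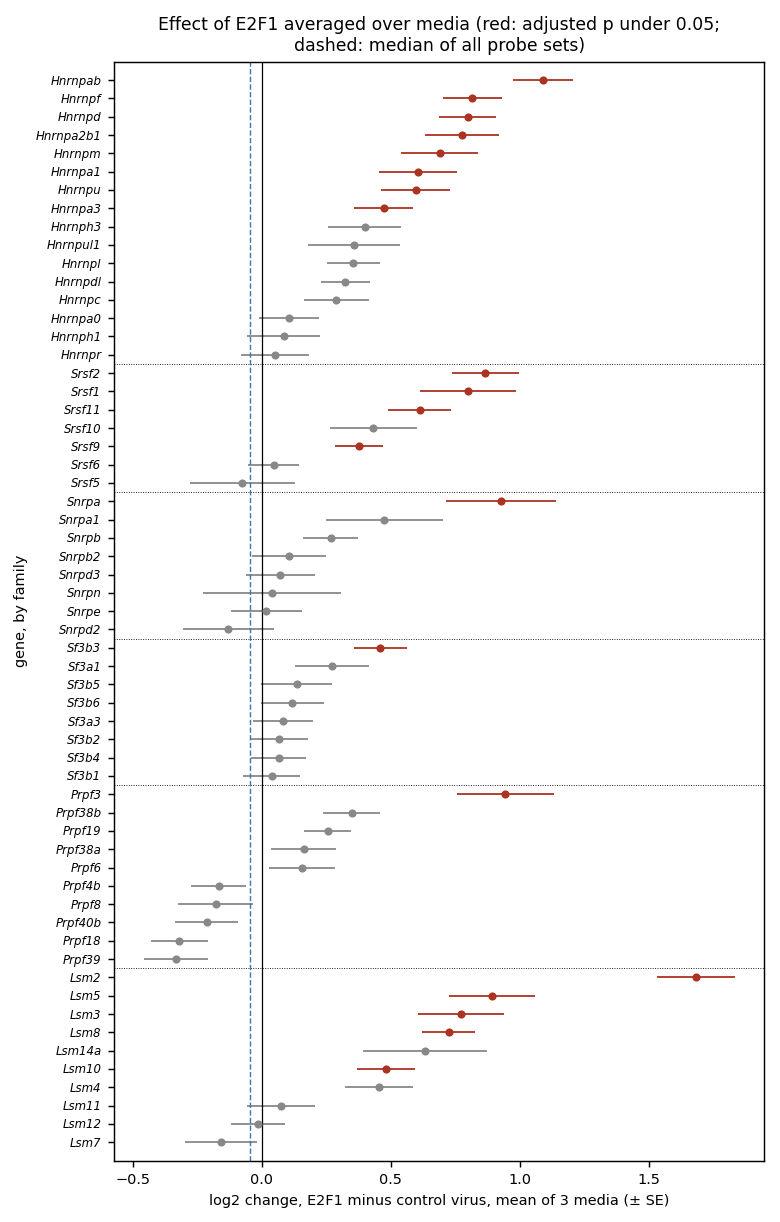
Log2 change (x axis, E2F1 minus control virus, mean of 3 media, bars ± SE) of each of the 59 genes, by family (y axis); red marks adjusted p under 0.05 and the dashed line the median of all probe sets. All 20 red points lie to the right of 0, and 12 of them are Hnrnp or Srsf genes.

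Lsm genes gave the largest change. Lsm2, a subunit of the Lsm ring that binds U6 RNA, had signals of 355 and 483 with control virus in serum, 383 and 280 with LY294002 and 383 in deprivation. With E2F1 its signals were 1551 and 1117 in serum, 1320 and 1332 with LY294002 and 1117 and 1027 in deprivation. Every E2F1 array thus lay above every control array. Lsm2 rose 3.21-fold in the average (log2 change 1.68 ± 0.15, SE, adjusted p = 0.000908). It was also the only member to rise in each medium tested by itself: 3.10-fold in serum (1.63 ± 0.24, adjusted p = 0.0465), 3.90-fold with LY294002 (1.96 ± 0.24, adjusted p = 0.0103) and 2.73-fold in deprivation (1.45 ± 0.30, adjusted p = 0.0474). The serum call held in 1 of 11 fits that each left out 1 array, where the log2 change ran from 1.40 to 1.87. That 1 fit left out the deprived control virus array, which does not enter the serum comparison, and it repeats the full fit. The deprivation call held in 2 of 10 (1.39 to 1.51).

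The same ring holds Lsm3, Lsm5 and Lsm8, the last of which distinguishes the nuclear ring on U6 from the cytoplasmic one of mRNA decay. Lsm8 read 383 to 550 with control virus and 637 to 881 with E2F1, without overlap, and rose 1.65-fold (0.72 ± 0.10, adjusted p = 0.00375). With LY294002 it read 383 and 441 with control virus and 853 and 881 with E2F1, and rose 2.07-fold (1.05 ± 0.16, adjusted p = 0.0174; called in 9 of 11 fits without 1 array). Lsm5 likewise did not overlap (324 to 488 against 528 to 884) and rose 1.85-fold (0.89 ± 0.17, adjusted p = 0.0102). Lsm3 rose 1.70-fold (0.77 ± 0.17, adjusted p = 0.0187); its highest control virus array (1330, second in serum) stood above both deprived E2F1 arrays (1120 and 1277). Lsm4, also of this ring, gave 0.46 ± 0.13 in the average (adjusted p = 0.0517). It rose 1.99-fold with LY294002 (1.00 ± 0.21, adjusted p = 0.0392), from 681 and 875 to 1657 and 1460. This call was kept in 1 of 11 fits without 1 array. That 1 fit left out the deprived control virus array and repeats the full fit for LY294002. Lsm7, also of the ring, did not pass (-0.16 ± 0.14, adjusted p = 0.506).

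Outside the ring, Lsm10, a subunit of the U7 particle that trims histone transcripts, rose 1.40-fold (0.48 ± 0.11, adjusted p = 0.0244; 259 to 347 with control virus and 344 to 468 with E2F1). Lsm10 gave 0.39 without the deprived arrays (adjusted p = 0.0966) and was called in 5 of 10 fits without 1 array. Its U7 partner Lsm11 had 0.07 ± 0.13 (adjusted p = 0.765), with its highest signal, 167, on the deprived control virus array. Lsm14a, a protein of cytoplasmic mRNA granules, stood at 0.63 ± 0.24 (adjusted p = 0.115). Its signal was 5548 on the second E2F1 array with LY294002, against 1452 to 3260 on the other 10. In deprivation it read 1773 with control virus and 3152 and 3260 with E2F1, while in serum the arrays overlapped (1692 and 2349, and 1793 and 2124). Lsm12, an Lsm-domain protein outside these rings, had the narrowest spread of any member, 0.16 on the log2 scale between its highest and lowest group means, and a change of -0.01 ± 0.10 (adjusted p = 0.95).

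Hnrnp genes lay above 0 without exception in the average, 16 of 16, against 44.3% of all probe sets, with a median of 0.435. Hnrnpab, an hnRNP of the A/B type, had signals of 4097 and 5287 with control virus in serum, 4033 and 4073 with LY294002 and 3333 in deprivation. With E2F1 they were 7809 and 7954 in serum, 9079 and 11034 with LY294002 and 7626 and 7800 in deprivation. The arrays did not overlap, and Hnrnpab rose 2.13-fold in the average (1.09 ± 0.12, adjusted p = 0.00144), 2.46-fold with LY294002 (1.30 ± 0.18, adjusted p = 0.0151) and 2.31-fold in deprivation (1.21 ± 0.23, adjusted p = 0.038; called in 4 of 10 fits without 1 array). In serum it gave 0.76 ± 0.18 (adjusted p = 0.117).

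Hnrnpf, which binds runs of G, rose 1.76-fold in the average (0.82 ± 0.11, adjusted p = 0.0037). Its signals were 2086 and 2077 with control virus in serum, 1607 and 1726 with LY294002 and 1072 in deprivation, and with E2F1 3353 and 3034, 3359 and 2590, and 2327 and 2047. Within each medium the E2F1 arrays were thus above, while over all media they overlapped, since the lower deprived E2F1 array read less than the control arrays in serum. Hnrnpd, also called AUF1 and a binder of AU-rich elements, showed the same order: 1143 and 1231, 911 and 1063, and 564 with control virus, and 1641 and 1946, 1572 and 1811, and 1124 and 1229 with E2F1. It rose 1.74-fold (0.80 ± 0.11, adjusted p = 0.00365). With LY294002 alone Hnrnpf (0.82 ± 0.18, adjusted p = 0.0444) and Hnrnpd (0.77 ± 0.18, adjusted p = 0.0491) also rose. Each kept this call in 1 of 11 fits without 1 array. That 1 fit left out the deprived control virus array and repeats the full fit for LY294002.

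Hnrnpa2b1 (1.71-fold, 0.78 ± 0.14, adjusted p = 0.00969), Hnrnpm (1.61-fold, 0.69 ± 0.15, adjusted p = 0.0193) and Hnrnpa1 (1.52-fold, 0.60 ± 0.15, adjusted p = 0.031) rose as well, and here the deprived control virus array stood apart. Hnrnpa1, a general repressor of splice sites, read 852 on that array and 1357 to 2028 on the other 4 control virus arrays, against 1719 to 2499 with E2F1. Hnrnpa2b1 read 1078 there and 1669 to 2623 on the other control arrays, and Hnrnpm 393 and 702 to 1114. Without the deprived arrays in the average Hnrnpa1 gave 0.36 (adjusted p = 0.236), Hnrnpa2b1 0.50 (adjusted p = 0.095) and Hnrnpm 0.47 (adjusted p = 0.126). Hnrnpu, the scaffold attachment factor, rose 1.51-fold (0.60 ± 0.13, adjusted p = 0.0205) and kept its call there (0.61, adjusted p = 0.0416), while Hnrnpa3 (1.39-fold, 0.47 ± 0.11, adjusted p = 0.0277) did not (0.33, adjusted p = 0.152). Of the 8 Hnrnp genes that did not pass, Hnrnpl (0.35 ± 0.10, adjusted p = 0.0529) and Hnrnpdl (0.32 ± 0.09, adjusted p = 0.0543) lay nearest, and Hnrnpr (0.05 ± 0.13) lowest.

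**Figure D2:**
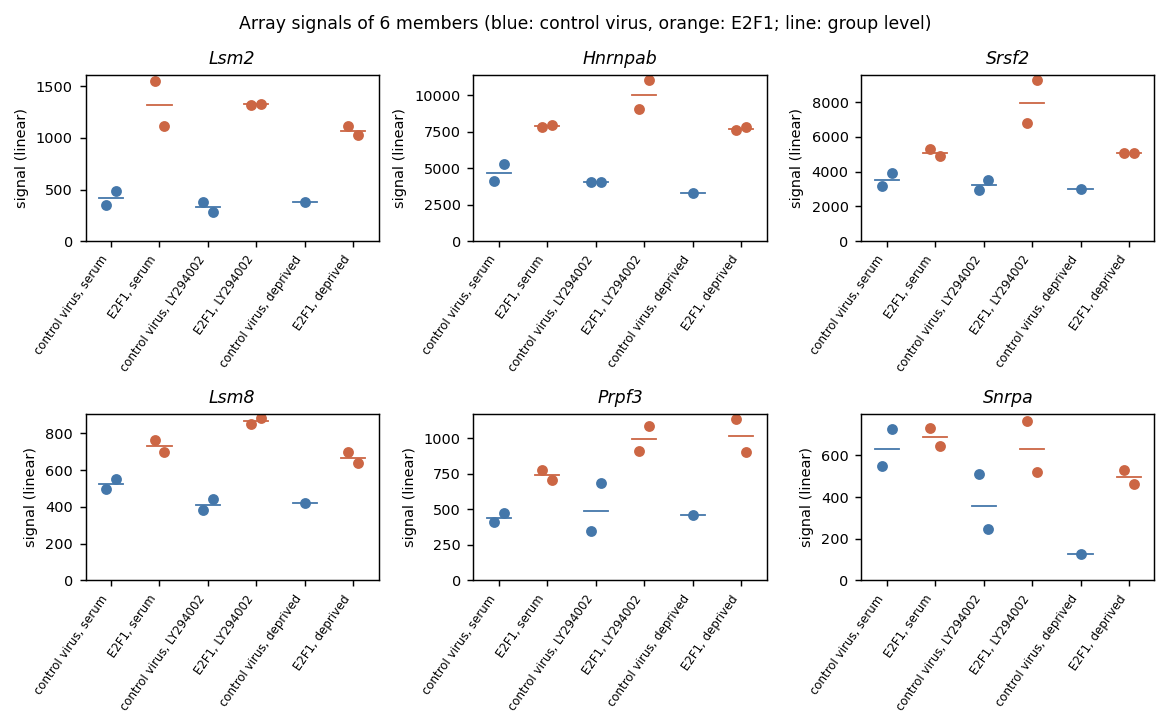
Signal on each array (y axis, linear array units) of 6 genes in the 6 groups (x axis), with control virus in blue and E2F1 in orange; horizontal lines are group levels averaged on the log2 scale. Lsm2, Hnrnpab, Srsf2, Lsm8 and Prpf3 separate all orange from all blue points, and Snrpa, at 125 on the deprived control virus array, does not.

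Among the SR protein genes, Srsf2 (also called SC35) had signals of 3150 and 3897 with control virus in serum, 2955 and 3504 with LY294002 and 3005 in deprivation. With E2F1 it read 5277 and 4911 in serum, 6804 and 9275 with LY294002 and 5092 and 5091 in deprivation. All E2F1 arrays were above all control arrays, and Srsf2 rose 1.82-fold in the average (0.86 ± 0.13, adjusted p = 0.00462) and 2.46-fold with LY294002 (1.30 ± 0.21, adjusted p = 0.0196). The E2F1 effect in serum without the inhibitor was 0.54 ± 0.21 (adjusted p = 0.277). Testing LY294002 minus serum for this effect gave 0.76 ± 0.29 (adjusted p = 0.77). A second probe set of Srsf2 rose too in the average (1.04 ± 0.14, adjusted p = 0.00336). Srsf11, an SR-related protein, rose 1.53-fold without overlap (610 to 725 with control virus, 835 to 1317 with E2F1; 0.61 ± 0.12, adjusted p = 0.0134). Srsf1, the founding SR protein ASF/SF2, rose 1.74-fold (0.80 ± 0.19, adjusted p = 0.0244), with 688 to 1345 and 1190 to 2241 and some overlap. Srsf9, also an SR protein, rose by the smallest step of any called member, 1.30-fold, with close replicates (1358 to 1555 and 1787 to 2032; 0.38 ± 0.09, adjusted p = 0.0317). Without the deprived arrays Srsf1 (0.70, adjusted p = 0.0776) and Srsf9 (0.40, adjusted p = 0.0557) missed the threshold. Srsf10 (0.43 ± 0.17), Srsf6 (0.05 ± 0.10) and Srsf5 (-0.08 ± 0.20) did not pass.

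Of the snRNP genes Snrpa, the A protein of the U1 particle, was called. Its signals were 550 and 726 with control virus in serum, 509 and 248 with LY294002 and 125 in deprivation, and with E2F1 730 and 646, 768 and 521, and 532 and 462. The control virus arrays thus varied far more than the E2F1 arrays, and Snrpa had the widest spread of group means of all members, 2.32 on the log2 scale. It rose 1.90-fold in the average (0.93 ± 0.21, adjusted p = 0.0227), and its value without the deprived arrays was 0.46 (adjusted p = 0.281). In serum its change was 0.12 ± 0.34 and in deprivation 1.87 ± 0.42 (adjusted p = 0.0594), and the difference between those, 1.75 ± 0.54, did not pass (adjusted p = 0.404). The Sm core genes stood near 0: Snrpe at 0.02 ± 0.14, Snrpd3 at 0.07 ± 0.13 and Snrpd2 at -0.13 ± 0.18, with Snrpb at 0.27 ± 0.11 (adjusted p = 0.131). The U2 proteins Snrpa1 (0.47 ± 0.23, adjusted p = 0.203) and Snrpb2 (0.10 ± 0.14) did not pass either, and Snrpb2 had the second narrowest spread of group means, 0.18.

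Snrpn, the imprinted SmN gene best known from brain, was dim here (34.2 to 151), so its log2 values depend on the offset. It read 122 and 130 on the control virus arrays with LY294002, against 39.9 and 34.7 in serum without it and 40.8 in deprivation. That LY294002 difference was 1.41 ± 0.43, the largest of any member in that comparison, and did not pass (adjusted p = 0.699). With E2F1 the values were 151 and 55.2 with LY294002, 85.3 and 37.9 in serum and 50.5 and 34.2 in deprivation, and overlapped between serum with and without LY294002.

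The SF3 genes, whose products hold U2 at the branch point, had a median of 0.10 with all 8 above 0, against 44.3% of all probe sets. Sf3b3, a large SF3b subunit, rose 1.38-fold (0.46 ± 0.10, adjusted p = 0.0211), with 1283 to 1717 on control virus arrays and 1856 to 2271 with E2F1, which do not overlap. Its value without the deprived arrays was 0.41 (adjusted p = 0.0669). The other 7, with values of 0.04 to 0.27, did not pass, among them Sf3b1, the subunit at the branch point (0.04 ± 0.11), Sf3b2 (0.07 ± 0.11) and Sf3a1 (0.27 ± 0.14, adjusted p = 0.247). Second probe sets of these differed: Sf3b1 gave 0.33 ± 0.11 (adjusted p = 0.0791), Sf3b2 -0.23 ± 0.17 and Sf3a1 0.01 ± 0.10.

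Of the Prpf genes Prpf3, a U4/U6 protein of the tri-snRNP, rose 1.92-fold (0.94 ± 0.19, adjusted p = 0.0131). It read 413 and 472 with control virus in serum, 349 and 683 with LY294002 and 463 in deprivation, and with E2F1 774 and 705, 908 and 1089, and 1133 and 907. The E2F1 arrays lay above all control arrays, the nearest control being the second with LY294002. Prpf8, the U5 protein at the heart of the spliceosome, had -0.18 ± 0.15 (adjusted p = 0.468), and Prpf6, also of the tri-snRNP, 0.16 ± 0.13. The kinase Prpf4b, whose spread of group means was also narrow at 0.23, had -0.17 ± 0.11. The lowest values among all members were also here: Prpf39 at -0.33 ± 0.12 (adjusted p = 0.109), Prpf18 at -0.32 ± 0.11 (adjusted p = 0.0917) and Prpf40b at -0.21 ± 0.12. Prpf18, a factor of the second splicing step, read 648 on the deprived control virus array and 331 and 386 on the deprived E2F1 arrays. It read 457 to 617 on the 8 arrays in serum (-0.83 ± 0.22 in deprivation, adjusted p = 0.0861). A dimmer second probe set of Prpf18 (31.6 to 153.7) gave -0.01 ± 0.34 in deprivation and -0.08 ± 0.17 in the average.

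**Figure D3:**
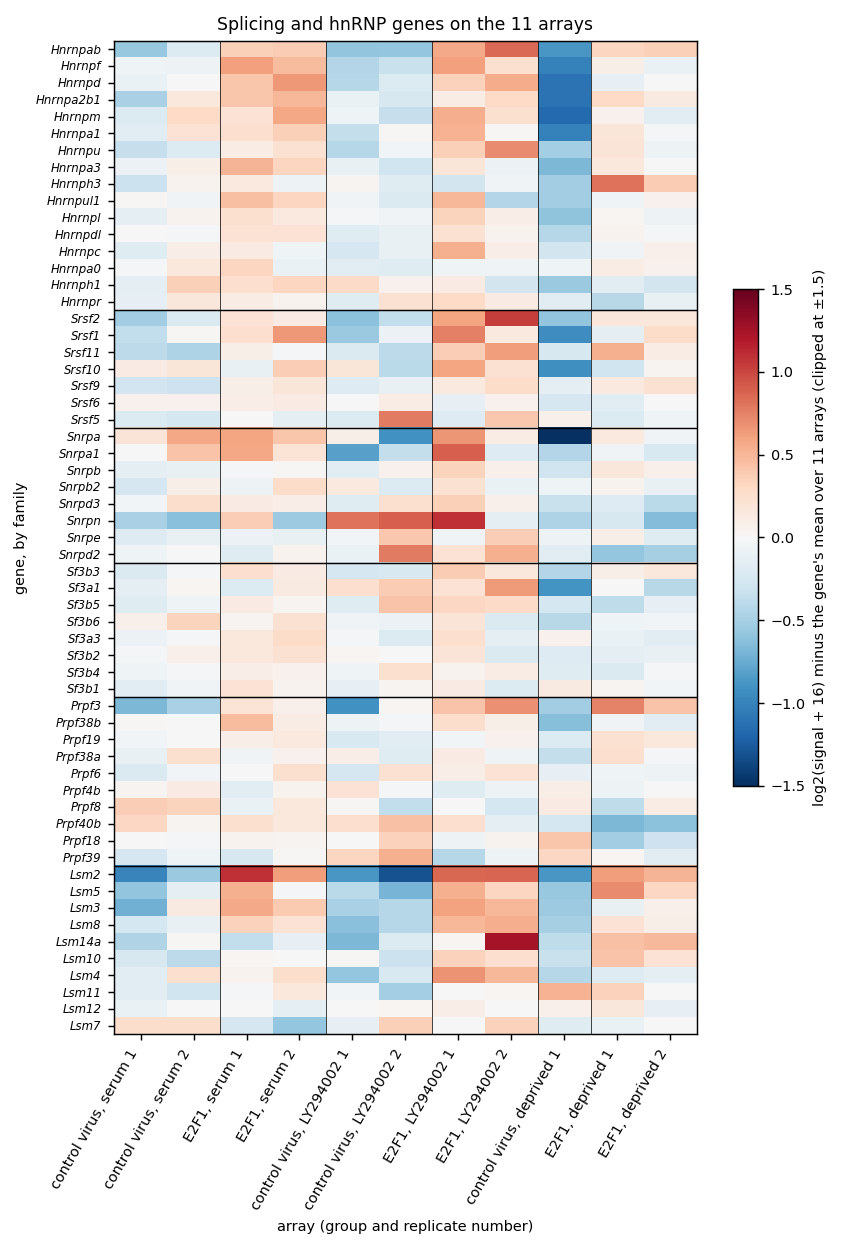
Heat map of the 59 genes (rows, by family and then by average change) on the 11 arrays (columns), as log2(signal + 16) minus the gene's own mean, clipped at ±1.5. The single deprived control virus column is the lowest group for 14 of 16 Hnrnp genes. The E2F1 groups in serum with and without LY294002 are the highest for 39 of the 59 genes. The same counts over all probe sets were not made.

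Within single media fewer members passed. In serum 1 of 59 rose with E2F1 and 0 fell, where 0.353% of all probe sets were called, 0.29% higher and 0.063% lower. With LY294002 7 rose (11.9%) and 0 fell, against 5.41%, 3.78% higher and 1.63% lower. In deprivation 2 rose (3.39%) and 0 fell, against 2.87%, 2.19% higher and 0.681% lower. The members' medians were 0.19, 0.23 and 0.40 in these media, and those of all probe sets 0.06, -0.04 and -0.14. In serum the E2F1 arrays lay above the control arrays without overlap for 35 members and below for 2, against 31.5% and 23.4% of all probe sets. With LY294002 this held for 31 and 2, against 21% and 23.1%, and in deprivation, with its single control array, for 41 and 10, against 31.8% and 52%. The 20 genes called in the average were above without overlap in each medium except Hnrnpm and Snrpa in serum and Hnrnpa1 with LY294002. The 7 with LY294002 are Lsm2, Srsf2, Hnrnpab, Lsm8, Lsm4, Hnrnpf and Hnrnpd. That count was 4 or fewer without the first array of E2F1 in serum, of deprived E2F1 or of control virus with LY294002, without the second array of E2F1 in serum or of deprived E2F1, or without the second E2F1 array with LY294002, whose 3′ to 5′ difference was 0.90; it was 1 without this last array (1.21% of all probe sets called) or the first control virus array with LY294002 (1.7%). In each of these smaller fits the share called of all probe sets also lay below the 5.41% of the full fit. The 20 members called in the average lay above 0 in each medium. Their log2 changes were 0.12 to 1.63 in serum, 0.25 to 1.96 with LY294002 and 0.34 to 1.87 in deprivation. These values also enter the average that chose the 20. Limma called 0 members, and 0 of all probe sets, for a difference of the E2F1 effect between LY294002 and serum or between deprivation and serum. The smallest adjusted p of a member was 0.749 and 0.404. An unadjusted p under 0.05 was found for 4 and 3 members, and for 6.29% and 9.72% of all probe sets. The 4 are Lsm4 (0.89 ± 0.30), Srsf2, Lsm8 (0.58 ± 0.23) and Prpf39 (-0.73 ± 0.28), and the 3 are Snrpa, Hnrnph3 (0.96 ± 0.36) and Prpf18 (-0.89 ± 0.28).

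**Figure D4:**
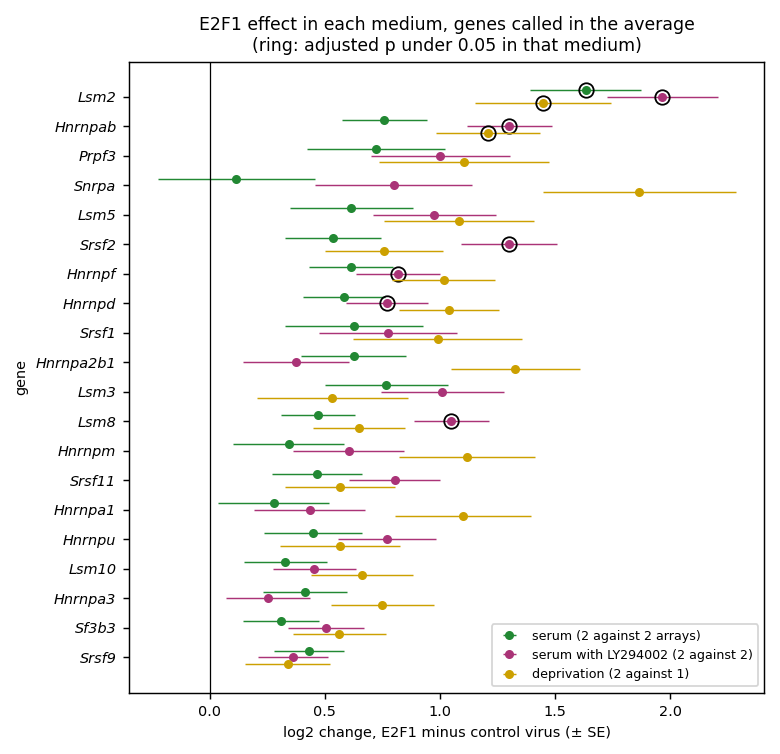
Log2 change with E2F1 (x axis, bars ± SE) in serum, serum with LY294002 and deprivation for the 20 genes called in the average (y axis); rings mark adjusted p under 0.05 in that medium. All points lie to the right of 0, and Lsm2 is ringed in all 3 media.

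LY294002 by itself called 0 members in either virus group, and 0 of all probe sets (0%). At an unadjusted p under 0.05 there were 3 members with control virus and 4 with E2F1, where all probe sets gave 6.62% and 11.1%. The members' medians were -0.05 with control virus and 0.01 with E2F1, and those of all probe sets 0.02 and -0.05. With control virus the LY294002 arrays lay above those without it for 8 members and below for 15, against 20.5% and 17% of all probe sets. With E2F1 the counts were 17 above and 5 below, against 19% and 24.6%. Lsm14a (0.89 ± 0.38, adjusted p = 0.447) had the highest value with E2F1, through the same array as above.

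Deprivation called 0 members as well, where limma called 0.24% of all probe sets in control virus cells (0.176% higher, 0.063% lower) and 0.233% in E2F1 cells (0.151% higher, 0.0819% lower). At an unadjusted p under 0.05 there were 14 members in control virus cells, 13 of them lower, and 5 in E2F1 cells, where all probe sets gave 14% and 19.6%. In control virus cells the brightest probe sets of all 16 Hnrnp genes were lower on the single deprived array than on either serum array. So were 39 of the 59 members and 34.5% of all probe sets, while 11 members and 44.9% of probe sets were higher on it. The Hnrnp median was -0.53, against 0.06 for all probe sets. Further probe sets of Hnrnp genes differed in sign there and did not pass. They gave 0.15 and -1.35 for Hnrnpa1, 0.42 for Hnrnpa2b1, and -0.68, 0.05 and -0.61 for Hnrnpa3. Hnrnpdl gave -0.27, and Hnrnpu 0.33 and 0.64. Hnrnpm (-1.22 ± 0.30, adjusted p = 0.158), Hnrnpd (-1.05 ± 0.22, adjusted p = 0.119) and Hnrnpa1 (-1.04 ± 0.30, adjusted p = 0.203) had the lowest values of the Hnrnp genes. Beside them stood Snrpa (-2.20 ± 0.42, adjusted p = 0.102), the lowest of all members, and Srsf10 (-1.07 ± 0.33, adjusted p = 0.228). The 3′ to 5′ difference was 0.76 on this array and 0.12 and 0.14 on the serum arrays. With it fitted as a covariate limma called 0 of all probe sets in this comparison. Its part in the values of single members was not tested. With E2F1 the Hnrnp median for deprivation against serum was -0.23 over 2 arrays against 2, and 12 of 16 were below without overlap, as were 37% of all probe sets. Of all members 30 were below and 8 above, against 37% and 23.1%. Prpf40b gave the lowest value there (-0.84 ± 0.20, adjusted p = 0.104), from 485 and 456 in serum to 250 and 261.

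The control virus group in deprivation had the lowest mean for 34 of the 59 members, including 14 Hnrnp genes, and an E2F1 group in serum, with or without LY294002, had the highest for 39. For 21 members that was E2F1 with LY294002 and for 18 E2F1 in serum. Neighbours in these orders were not tested beyond the comparisons above. The same counts over all probe sets were not made. The mean of the control virus group in deprivation is a single array, with a 3′ to 5′ difference of 0.76, and is less precise than a mean of 2.

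Other probe sets of the same genes gave a partial check. Of the 20 members called in the average, 7 have further probe sets, 12 in all; each of the 12 had the same sign, 3 of them passed (of Srsf2, Hnrnpa2b1 and Hnrnpa3), and 0 passed with the other sign. The second probe set of Srsf1 stood at 0.65 ± 0.19 (adjusted p = 0.0507), while those of Hnrnpu gave 0.25 and 0.36. A second probe set of Srsf10 passed (0.51 ± 0.12, adjusted p = 0.0271) where its brightest did not (0.43, adjusted p = 0.126), and the remaining one gave -0.08. Probe sets shared with other genes or copies, 9 for these families, were not used.

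Other genes of splicing and of mRNA packaging were taken from a list of 132, of which 108 were measured. In the average 33 rose and 1 fell (31.5% called), with a median of 0.20. Limma called 16.5% of all probe sets there, 9.23% higher and 7.25% lower, beside 30.6% and 0.926% of these genes. In a separate fit with the dimmest 30% left out it called 27.3%, in either direction, while the list's shares are from the full fit. Gemin2, of the SMN complex that loads Sm rings onto snRNAs, read 226 to 264 with control virus and 631 to 1127 with E2F1. It rose in the average (1.81 ± 0.13, adjusted p = 0.000479) and in each medium, by 1.52 ± 0.21 in serum (adjusted p = 0.0447), 1.84 ± 0.21 with LY294002 (adjusted p = 0.00812) and 2.06 ± 0.26 in deprivation (adjusted p = 0.0211). Alyref, an adaptor of mRNA export, rose (1.54 ± 0.14, adjusted p = 0.000962; 904 to 1567 and 3181 to 4261), and so did Ncbp1, the large subunit of the nuclear cap-binding complex (0.93 ± 0.11, adjusted p = 0.0025; 332 to 448 and 595 to 821). Tial1, an RNA-binding regulator of splicing and translation, rose by 1.00 ± 0.13 (adjusted p = 0.00315). Rbmx, a nuclear hnRNP-type protein also called hnRNP G, rose most (2.30 ± 0.39, adjusted p = 0.0071), with 52.5 on the deprived control virus array, 68.1 on the second with LY294002, 368 to 457 on the other 3 control arrays and 527 to 1050 with E2F1. Without the deprived arrays in the average Rbmx gave 1.53 (adjusted p = 0.0685) and the helicase Ddx39a, which rose by 1.11 ± 0.24 (adjusted p = 0.0198), gave 0.86 (adjusted p = 0.095). Rbfox2, a splicing regulator, was the 1 that fell (-0.59 ± 0.16, adjusted p = 0.0412; 443 to 583 with control virus, 231 to 415 with E2F1), and its value without the deprived arrays was -0.70 (adjusted p = 0.0506). The count of 34 became 19 when array 1 of either virus in serum was left out, 20 without deprived E2F1 array 1 and 21 without E2F1 array 2 in serum; the share called of all probe sets was then 9.71% to 12.6%.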

How the data were processed

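The authors deposited 1 linear signal intensity for each probe set on each array. With the top and bottom 2% removed, every array had a mean of 500. MAS5 and RMA are named in the submitters' processing notes, with no role or version. Of 15923 probe sets, 57 controls were left out. Genes were named from the platform annotation (12783 probe sets with 1 symbol, 312 with several, 2771 with none); all 59 members were found in RefSeq (GRCr8).

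Signals were transformed as log2(signal + 16). Using limma 3.58.1 under R 4.3.3 (lmFit and eBayes), 1 mean per group was estimated from the 11 arrays together, with 5 residual degrees of freedom, and p-values were Benjamini-Hochberg adjusted over 15866 probe sets within each of 10 comparisons, with a threshold of 0.05. For the group of 1 array, the spread was taken from the other groups. Errors are standard errors. The fit was tested on simulated data.

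The named genes were all called members of a comparison (15 at most per direction), the brightest member of each family, those with the 3 widest and 3 narrowest ranges of group means, Srsf1, Srsf2, Hnrnpa1, Hnrnpd and Snrpn, up to 6 other splicing genes per direction, and Ccne1, Mcm6 and Pola2; other members were named after their values were seen. Members and lists were chosen with earlier results of these data known. Deviations of same-numbered arrays from their group means correlated from -0.022 to 0.301 between groups, over 0.1 in 1 of 10 pairs of groups. The numbers were not taken to pair the arrays, and a fit with them as a block is given below.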

Additional observations from a re-analysis of the deposited data

How the results depend on the processing

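In the average over media 9 of the 20 members were called in each of 21 alternatives (Lsm2, Lsm5, Lsm8, Hnrnpab, Hnrnpd, Hnrnpf, Prpf3, Srsf2 and Srsf11). Leaving out each array in turn gave 12 to 23 members in the average, 0 to 1 in serum, 1 to 7 with LY294002, 0 to 3 in deprivation and 19 to 34 of the other splicing genes. Without the deprived control virus array the average, the E2F1 effect in deprivation and the control cells' deprivation effect could not be fitted. The comparisons that do not use this array then repeated the full fit, since a group of 1 array adds nothing to the spread. The average, which uses all groups, has no fit of the compared groups alone. Over serum and LY294002 only (added after seeing the data) the average gave 11 members and 21 other genes, with 10.2% of all probe sets called. With the replicate block (the replicate number as a block) the counts were 20 in the average, 6 with LY294002, and 0 in serum and in deprivation, where 15.5%, 3.86%, 0.0189% and 0.826% of all probe sets were called. Shares in brackets are those called of all features in the same fit. Between the fits without 1 array this share changed as well, in the average and in each medium. The counts in deprivation were 4 after quantile normalization (3.25%), 0 with an offset of 1 (1.2%), 6, 1 of them lower, with an offset of 64 (5.09%), 7 without the dimmest 30% of probe sets (6.97%), 6 with trend and robust settings (4.39%) and 6 with the mean of a gene's probe sets (4.8%). The LY294002 counts were 4 with an offset of 1 (2.83%) and 11 without the dimmest 30% (11.8%). In serum 0 passed after median centring (0.233%), with an offset of 1 (0.0315%), and with RNA quality (3′ minus 5′ signal) as a covariate (0.41%), which gave 2 with LY294002 (1.8%) and 24 in the average (19.7%). A fit of the compared groups alone gave 0 in each medium (0%). Without both second LY294002 arrays 0 passed in serum (0.0126%) and 0 with LY294002 (0%), 7 in deprivation (6.9%), and 1 fell with deprivation in E2F1 cells (6.09%) and 1 in control virus cells (1.19%); with the mean of a gene's probe sets 1 fell with deprivation in E2F1 cells (0.375%). Signs in the average were followed for 29 of the 59 members (those called and the others the rule names), and turned for 4 of them, near 0. Snrpe gave -0.0036 with the replicate block, -0.0218 with the covariate and -0.0553 to 0.0912 without 1 array (-0.0272 and -0.0532 among them). Sf3b2 gave -0.0817 with the mean of probe sets and -0.0029 to 0.1365 without 1 array, and Snrpn -0.1664 to 0.2449 without 1 array. Lsm12 gave 0.0514 with the mean of probe sets, 0.0059 without both second LY294002 arrays, 0.0086 over serum and LY294002 only, and -0.0632 to 0.0349 without 1 array. The causes of these shifts were not tested, and signal near the offset limits Snrpn.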
